A study of Mus musculus with 8 samples.

Results

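The secreted WNT antagonists are 10 genes whose products hold back WNT signaling outside the cell or at its surface, and they were taken by gene symbol from the 48709 genes counted in the P1 cortex. They are 3 Dickkopf genes (*Dkk1*, *Dkk2* and *Dkk3*), 4 secreted frizzled-related protein genes (*Sfrp1*, *Sfrp2*, *Sfrp4* and *Sfrp5*), and *Wif1*, *Notum* and *Apcdd1*. All 10 had counts, 9 passed the filter on low counts and were tested, and *Dkk1* was too low to test. RNA-seq was performed on postnatal cortical tissue from 4 control and 4 dcKO_Nex-Cre samples, with 1 library each, all at P1. In the mutants, floxed alleles of BAF155 and BAF170, which are encoded by *Smarcc1* and *Smarcc2*, are deleted by Nex-Cre in postmitotic projection neurons, so that progenitors, glia, interneurons, vessels and meninges of the same tissue keep both genes. Controls carry 1 floxed allele of each gene and no Cre (BAF155fl/+, BAF170fl/+), so that loss of the subunits and presence of Cre cannot be told apart, and all animals are on a C57BL6/J background. The labels name the groups only as control and mutant, and the Cre line and the control genotype were taken from the methods of the study. The labels do not say that replicates came from separate animals, so that p-values measure only the spread between these samples.

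WNT proteins are lipid-modified ligands that bind Frizzled receptors together with the LRP5 and LRP6 coreceptors, which stabilizes β-catenin and switches on TCF/LEF target genes. Antagonists act at different points of this chain. SFRP proteins and WIF1 bind the ligands themselves, DKK1 and DKK2 occupy LRP5 and LRP6, NOTUM removes the lipid from the ligand, and APCDD1 is a membrane protein that binds both ligands and LRP5. DKK3 is grouped with the Dickkopf proteins by sequence, but its effect on WNT signaling depends on the cell type. In the developing forebrain WNT ligands and their antagonists are made by different domains, among them the cortical hem, the ventricular zone, the choroid plexus and the meninges. The study asked whether WNT signaling is involved in the migration defect of neurons that lack the BAF complex.

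Counts are given as CPM, which is counts scaled by edgeR to a common library size with the TMM method, or, where levels of different genes are compared, as RPKM, which is CPM divided by the length of all annotated exons of the gene in kilobases. Total counts ranged from 17958641 to 35191912 per library. Of the deleted genes, *Smarcc2* fell from 462 ± 25.8 to 263 ± 26.03 CPM and *Smarcc1* from 148 ± 11.6 to 102 ± 13.7 CPM (SD, n = 4 each). Their log2 fold changes were -0.81 (edgeR, adjusted p = 0.00267) and -0.53 (edgeR, adjusted p = 0.0348), and *Smarcc1* passed the threshold in only 2 of the 8 fits that leave out a library, those without dcKO_Nex-Cre replicate 2 (adjusted p = 0.0212) or 4 (adjusted p = 0.0207). Every mutant library lay below every control library for both genes. *Dhx30* shares 123 exon bases with *Smarcc1* on the opposite strand, and the kit used does not mark strand, so that reads there cannot be told apart. Mitochondrial transcripts took 2.33% to 6.87% of the counts, with the highest share in control replicate 2 and, at 6.15%, dcKO_Nex-Cre replicate 4. Lane tag 2 was carried by the 4 controls and by dcKO_Nex-Cre replicates 1 and 2, and lane tag 8 only by dcKO_Nex-Cre replicates 3 and 4. Markers of projection neurons (8 genes) summed to 1116 to 1266 CPM in the control and 997 to 1229 CPM in the mutant libraries, and no marker of the 12 lists examined was at 0 in all libraries.

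At the P1 stage, the antagonist RNA of the cortex was made up mostly of *Dkk3* and *Sfrp1*. *Dkk3* was at 33.1 ± 3.22 RPKM in the control and 42.3 ± 4.78 RPKM in the dcKO_Nex-Cre cortex, and *Sfrp1* at 25.5 ± 4.09 and 30.2 ± 3.70 RPKM (SD, n = 4 each). The ranges of these genes did not overlap within either group, since *Dkk3* was at 30.5 RPKM or more in every control library and 37.9 RPKM or more in every mutant library, and *Sfrp1* at most at 27.9 and 33.7 RPKM. *Apcdd1* followed with 6.0 ± 1.32 and 7.26 ± 1.06 RPKM, and *Sfrp2* with 5.42 ± 0.977 and 7.13 ± 1.34 RPKM (SD, n = 4 each). These neighbours in the order overlapped in both groups. The annotated exons of *Apcdd1* add up to 12884 bases, against 1900 to 4372 bases for the other 9 genes, and its level per length rests on that annotation.

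The other 6 members were lower by a wide margin. *Sfrp5* was at 0.875, *Notum* at 0.792, *Dkk2* at 0.467, *Wif1* at 0.383 and *Sfrp4* at 0.302 RPKM on average in the control. Neighbours in this order overlapped between libraries, except that *Notum*, at 0.710 RPKM or more, lay just above *Dkk2*, at 0.690 RPKM or less, in the control, whereas these genes overlapped in the mutant. *Dkk1*, with 0.0547 RPKM on average in the control and 0.0373 RPKM in the mutant, was at the bottom of the order. For comparison, the median over all tested genes was 4.90 RPKM, so that 4 members stood above it and 6 below. In summed RPKM, *Dkk3*, *Sfrp1*, *Apcdd1* and *Sfrp2* made up 96.0% ± 0.645 of the RNA of the 10 members in control libraries and 96.8% ± 0.146 in mutant libraries (SD, n = 4 each). *Dkk3* alone took 45.6% and 47.1%, and *Sfrp1* 34.9% and 33.6%.

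**Figure D1:**
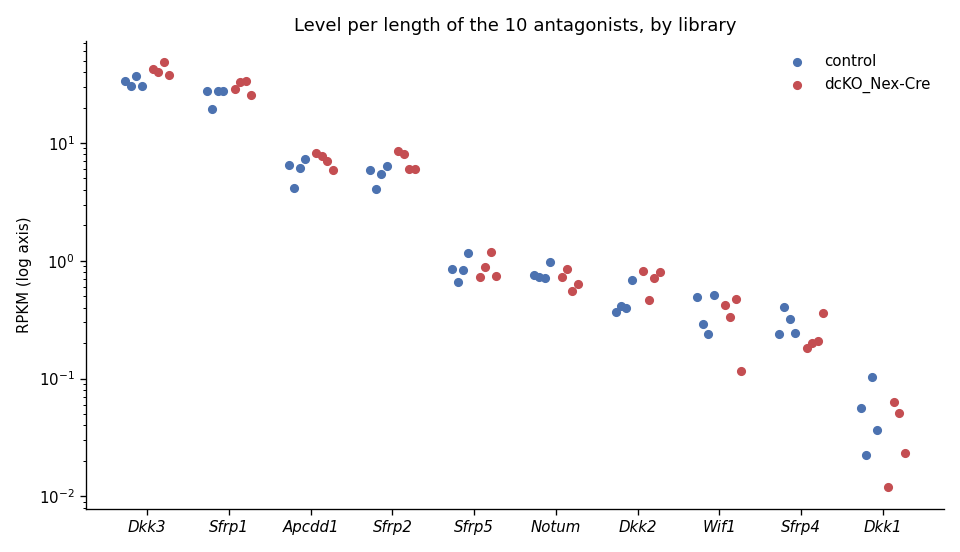
Level per length of the 10 antagonists in each of the 8 libraries, as RPKM on a log axis, with control libraries in blue and dcKO_Nex-Cre libraries in red (replicates 1 to 4 from left to right in each cluster of points). *Dkk3* and *Sfrp1* lie above 19 RPKM in every library, *Apcdd1* and *Sfrp2* between 4 and 9 RPKM, and the other 6 genes below 1.2 RPKM.

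Summed over the 10 genes, antagonist RNA was at 72.9 ± 8.21 RPKM in the control and 89.8 ± 8.51 RPKM in the dcKO_Nex-Cre cortex (SD, n = 4 each). The control libraries 1 to 4 were at 76.5, 60.8, 78.8 and 75.6 RPKM, and the mutant libraries at 91.0, 91.0, 98.8 and 78.3 RPKM. dcKO_Nex-Cre replicate 4 fell within the range of the control. The 19 WNT ligand genes summed to 34.6 ± 1.42 and 40.6 ± 5.14 RPKM (SD, n = 4 each). The 10 members together had 2.10 ± 0.168 transcripts per ligand transcript in the control and 2.23 ± 0.246 in the mutant (SD, n = 4 each). This difference was smaller than the spread between libraries. The ratio leaves out 16 other genes listed as antagonists, so that it is not that of all antagonists to ligands.

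When the groups were compared gene by gene, none of the 9 tested antagonists passed an adjusted p of 0.05 with edgeR's quasi-likelihood test, which called 0.884% of all 16287 tested genes. In the mutant, *Dkk3*, *Dkk2* and *Sfrp2* were higher at an unadjusted p under 0.05, where 6.59% of all tested genes were called higher. At the same p, 0 members were lower, against 7.05% of all tested genes. DESeq2's Wald test called 1 member, *Dkk3*, and limma-voom 0 at an adjusted p under 0.05. *Dkk3* alone had groups that did not overlap, with all 4 mutant libraries above all 4 controls, as did 3.99% of all tested genes. No member lay without overlap below the control, where 4.01% of all tested genes did. The log2 fold change was above 0 for 6 of 9 members and for 50.9% of all tested genes, and the median was 0.24 over the members and 0.0043 over all tested genes. In whole tissue, a change in the number of cells that make a transcript and a change in its amount per cell cannot be told apart.

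**Figure D2:**
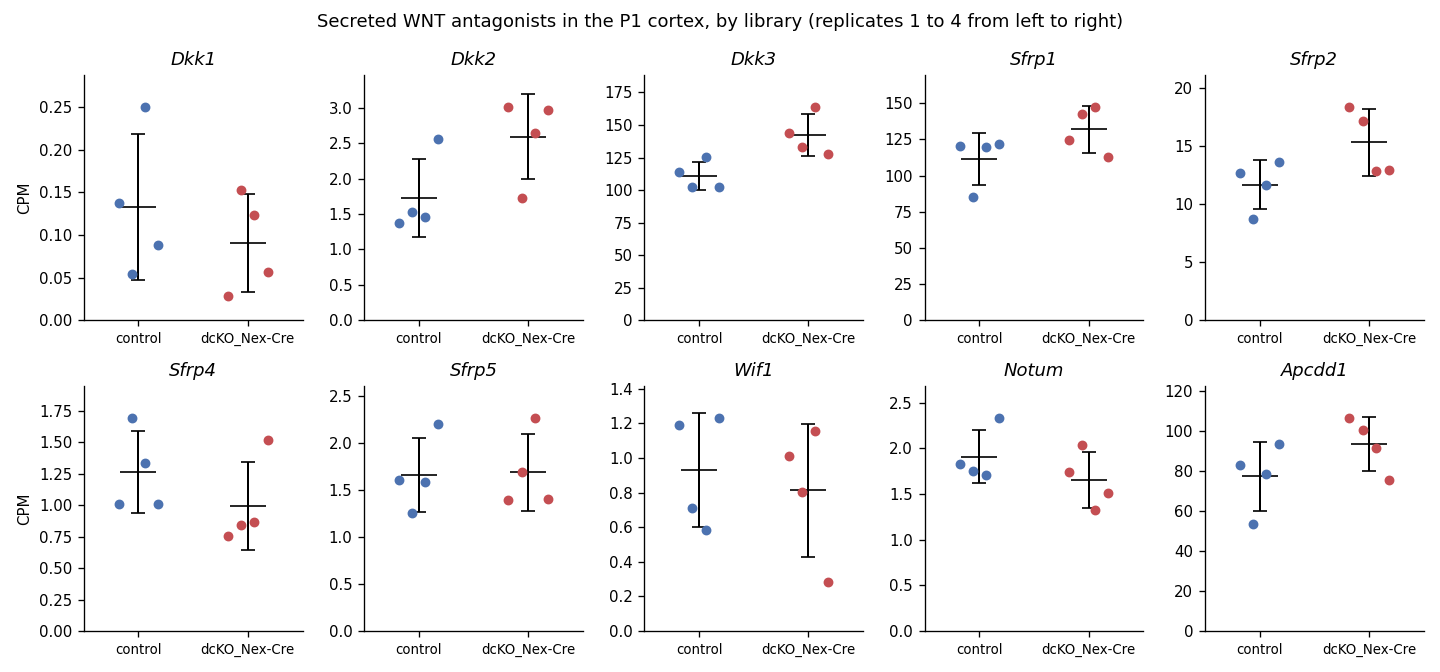
CPM of each antagonist in each library (linear axes starting at 0), with points for replicates 1 to 4 from left to right and black bars for the mean ± SD of the 4 libraries of a group. *Dkk3* is the only gene whose mutant points all lie above its control points, and control replicate 2 has the lowest control value of *Sfrp1*, *Sfrp2* and *Apcdd1*.

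*Dkk3* (ENSMUSG00000030772, chromosome 7 of GRCm38, 112116017 to 112159057) encodes a secreted glycoprotein that, unlike DKK1, does not act as a plain blocker of LRP5 and LRP6. In control replicates 1 to 4 it was at 114, 103, 125 and 102 CPM, and in dcKO_Nex-Cre replicates 1 to 4 at 144, 133, 164 and 127 CPM. The lowest mutant library thus lay just above the highest control library, and dcKO_Nex-Cre replicate 3 was the highest of all. The means were 111 ± 10.8 CPM in the control and 142 ± 16.1 CPM in the mutant (SD, n = 4 each), or 128% of the control. The log2 fold change was 0.36 (standard error 0.10, 95% interval 0.14 to 0.57), with an unadjusted p of 0.00356 and an adjusted p of 0.136 from edgeR. A two-sided exact permutation test over the 70 regroupings of the libraries gave p = 0.0286, the minimum for groups of this size.

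The call for *Dkk3* depended on the test and on a library. It passed with the Wald test of DESeq2 (log2 fold change 0.36, adjusted p = 0.0370), which called 3.16% of the genes given an adjusted p. It also passed in edgeR without dcKO_Nex-Cre replicate 4 (log2 fold change 0.41, adjusted p = 0.0283), in a fit that called 7.73% of all genes tested, and without both libraries of high mitochondrial share (log2 fold change 0.37, adjusted p = 0.0275), in a fit that called 11% of all genes tested. With limma-voom it did not pass. The fold change was between 0.28 and 0.42 in all 17 alternative fits, and its unadjusted p was under 0.05 in each of the 8 fits that leave out a library, as was that of *Sfrp2* in 4 of the 8 and that of *Dkk2* in 2. Within lane tag 2 it was 0.32 (edgeR, adjusted p = 0.103).

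*Dkk2* (ENSMUSG00000028031, chromosome 3, 132085292 to 132180304) encodes a ligand of LRP6 that inhibits or weakly activates the receptor depending on its partners. Control replicates 1 to 4 were at 1.37, 1.53, 1.46 and 2.56 CPM, and dcKO_Nex-Cre replicates 1 to 4 at 3.01, 1.72, 2.64 and 2.97 CPM. Control replicate 4 stood apart from the other controls and above dcKO_Nex-Cre replicate 2, so that the groups overlapped, whereas the other 3 mutant libraries lay above every control. With 28 to 58 counts per control library and 45 to 104 per mutant library, the gene is thinly covered. The means were 1.73 ± 0.554 and 2.59 ± 0.600 CPM (SD, n = 4 each), and the log2 fold change of 0.57 was the highest among the members (standard error 0.26, unadjusted p of 0.0464, adjusted p = 0.357, edgeR). A two-sided exact permutation test gave p = 0.0571. Within lane tag 2 the log2 fold change was 0.46 with an unadjusted p of 0.176 from edgeR.

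*Dkk1* (ENSMUSG00000024868, chromosome 19, 30545863 to 30549665), the best known blocker of LRP5 and LRP6, was close to absent from the counts. The controls held 3, 1, 6 and 2 counts and the mutants 1, 4, 3 and 1 counts, or 12 and 9 counts in all. Only 1 library of each group exceeded 3 counts, the limit that a count of 0 allows, so that a difference was not detectable at this depth and no fold change is given.

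The bases before the RefSeq start of *Dkk2* and *Sfrp2* are shown because both were higher at an unadjusted p under 0.05 and are among the 5 of 10 members in the promoter table used. Both are given 5′ to 3′ on the plus strand (RefSeq, GRCm38.p6). For *Dkk1*, which is known as a direct target of β-catenin, a stretch on the minus strand is shown, with letters that match a TCF/LEF motif in capitals.

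*Dkk2*, chr3:132085042-132085291: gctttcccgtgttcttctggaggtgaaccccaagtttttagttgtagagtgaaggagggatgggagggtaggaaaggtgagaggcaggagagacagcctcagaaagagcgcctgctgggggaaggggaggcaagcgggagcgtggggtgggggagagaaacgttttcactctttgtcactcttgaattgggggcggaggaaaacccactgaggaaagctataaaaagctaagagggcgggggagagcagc

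*Sfrp2*, chr3:83766071-83766320: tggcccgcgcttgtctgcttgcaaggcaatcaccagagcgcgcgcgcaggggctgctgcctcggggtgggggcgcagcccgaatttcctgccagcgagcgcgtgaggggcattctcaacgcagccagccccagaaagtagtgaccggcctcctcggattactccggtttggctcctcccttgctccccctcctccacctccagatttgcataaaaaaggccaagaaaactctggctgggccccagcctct

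*Dkk1*, chr19:30549588-30549613: CTTTGAAatcccatcccggCTTTGTT

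The TCF/LEF motif was searched as the letters CTTTGAA and in its variants with the letters CTTTGAT, with the letters CTTTGTA and with the letters CTTTGTT, on both strands, in the 250 bases before each start. Of 32851 promoters in the table, 14.8% held at least 1 match and 1.43% held 2 or more. *Dkk1* had 2 matches, and *Dkk2*, *Sfrp2*, *Sfrp5* and *Wif1* had 0 in this window. The stretch of *Dkk1* ends 92 bases before the RefSeq start and lies inside the longer span that the GRCm38 annotation used here for positions gives to the gene. These matches are descriptions of sequence and say nothing of whether a factor binds there. The windows of *Dkk2* and *Sfrp2* had a GC content of 55.6% and 63.6%, against a median of 52.4% over the table.

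Of the secreted frizzled-related proteins, which carry a cysteine-rich domain like that of the Frizzled receptors and sequester WNT ligands, *Sfrp1* and *Sfrp2* are known from cortical progenitors. The 4 genes had a median log2 fold change of 0.13. At an unadjusted p under 0.05, 1 of them, *Sfrp2*, was higher, as were 6.59% of all tested genes. *Sfrp1* and *Sfrp2* had positive fold changes in every fit made, *Sfrp4* a negative one in every fit, and *Sfrp5* changed sign between fits.

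*Sfrp2* (ENSMUSG00000027996, chromosome 3, 83766321 to 83774316) was at 12.7, 8.76, 11.6 and 13.6 CPM in control replicates 1 to 4, and at 18.4, 17.2, 12.8 and 13.0 CPM in dcKO_Nex-Cre replicates 1 to 4. Mutant replicates 1 and 2 were above every control, whereas replicates 3 and 4, the libraries of lane tag 8, lay within the control range. The means were 11.7 ± 2.10 and 15.4 ± 2.88 CPM (SD, n = 4 each), and the log2 fold change was 0.40 (standard error 0.16, unadjusted p of 0.0333, adjusted p = 0.320, edgeR). A two-sided exact permutation test gave p = 0.114. Within lane tag 2, where the mutants are replicates 1 and 2 only, the log2 fold change was 0.61 (unadjusted p of 0.00322, adjusted p = 0.0756, edgeR), and without control replicate 2 it was 0.29. *Gm26771*, an antisense transcript, shares 347 exon bases with *Sfrp2*, and had 2.88 counts per library on average against 331 for *Sfrp2*.

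*Sfrp1* (ENSMUSG00000031548, chromosome 8, 23411502 to 23449632) was at 120.3, 84.9, 119.7 and 122 CPM in the controls and at 124, 143, 148 and 113 CPM in the mutants. Control replicate 2 was far below the other 3, which were close together, and dcKO_Nex-Cre replicate 4 lay below those 3 controls. The means were 112 ± 17.9 and 132 ± 16.2 CPM (SD, n = 4 each). The log2 fold change was 0.24 (standard error 0.12, edgeR, adjusted p = 0.418) and fell to 0.14 without control replicate 2.

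*Sfrp4* (ENSMUSG00000021319, chromosome 13, 19623104 to 19632994) was at 1.01, 1.70, 1.34 and 1.01 CPM in the controls and at 0.754, 0.843, 0.867 and 1.52 CPM in the mutants. Mutant replicates 1 to 3 were below every control, and replicate 4 was above 3 of the 4 controls. The log2 fold change was -0.37 (standard error 0.29, edgeR, adjusted p = 0.578). When a library was left out it ranged from -0.61 without dcKO_Nex-Cre replicate 4 (unadjusted p of 0.0442 from edgeR) to -0.20 without control replicate 2 (unadjusted p of 0.519), with -0.25 without dcKO_Nex-Cre replicate 1, and it was -0.65 within lane tag 2. Each library held 21 to 32 counts of the gene. *Sfrp5* (ENSMUSG00000018822, chromosome 19, 42197971 to 42202252) was at 1.26 to 2.20 CPM in the control and 1.39 to 2.27 CPM in the mutant libraries, with a log2 fold change of 0.01 whose 95% interval ran from -0.51 to 0.54.

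*Apcdd1* (ENSMUSG00000071847), which encodes the membrane-bound antagonist, was at 83.3, 53.5, 78.7 and 93.7 CPM in control replicates 1 to 4, and at 107, 101, 91.4 and 75.4 CPM in dcKO_Nex-Cre replicates 1 to 4. Control replicate 2 was again the lowest of all libraries, and dcKO_Nex-Cre replicate 4 the lowest mutant. The means were 77.3 ± 17.1 and 93.5 ± 13.6 CPM (SD, n = 4 each), and the log2 fold change was 0.28 (standard error 0.16, edgeR, adjusted p = 0.462). It was 0.14 without control replicate 2 and 0.42 within lane tag 2 (unadjusted p of 0.0499, adjusted p = 0.213, edgeR).

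*Wif1* (ENSMUSG00000020218, chromosome 10, 121033960 to 121100650), which binds WNT ligands through its WIF domain, and *Notum* (ENSMUSG00000042988, chromosome 11, 120653788 to 120661175), which encodes the deacylase, had negative fold changes that were smaller than their standard errors. *Wif1* was at 0.584 to 1.23 CPM in the controls and at 0.281 to 1.16 CPM in the mutants, with only 5 counts in dcKO_Nex-Cre replicate 4, and its log2 fold change was -0.15 (95% interval -0.99 to 0.69). *Notum* was at 1.71 to 2.33 CPM in the controls and 1.32 to 2.03 CPM in the mutants, with a log2 fold change of -0.20 (95% interval -0.65 to 0.25). The value of *Notum* was -0.02 within lane tag 2, -0.089 without control replicate 4, -0.11 without dcKO_Nex-Cre replicate 3 and -0.31 without dcKO_Nex-Cre replicate 2. The antisense genes *Notumos* and *Myadml2os* share 708 and 210 exon bases with *Notum* and had 4.0 and 0.625 counts per library on average, against 42.3 for *Notum*. The intervals of *Sfrp5*, *Wif1* and *Notum* leave room for changes of the size measured for *Dkk3*, in one direction or both.

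**Figure D3:**
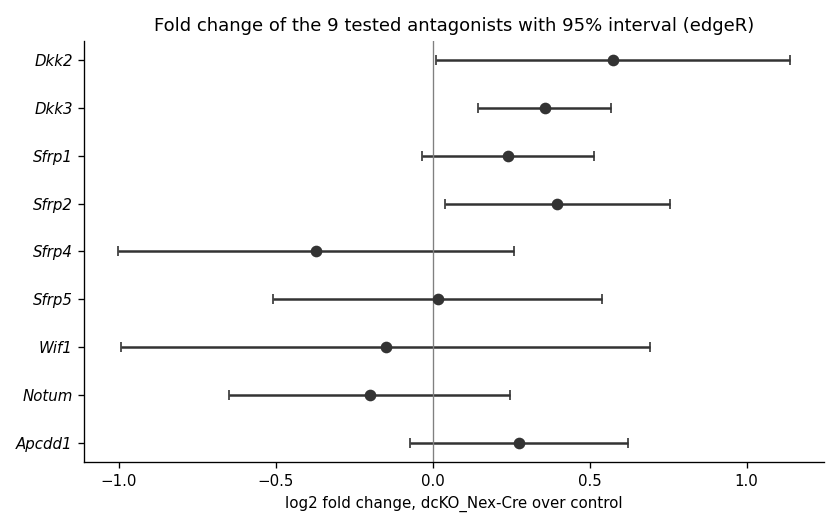
Log2 fold change of the 9 tested antagonists, dcKO_Nex-Cre over control, from edgeR with 95% intervals. The intervals of *Dkk2*, *Dkk3* and *Sfrp2* lie above 0, and those of the other 6 genes include 0.

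Control replicate 2 and dcKO_Nex-Cre replicate 4, the libraries with the highest mitochondrial shares of their groups, touched several members at once. As a percentage of the control mean, control replicate 2 was at 76.0% for *Sfrp1*, 75.0% for *Sfrp2*, 69.2% for *Apcdd1* and 92.5% for *Dkk3*. dcKO_Nex-Cre replicate 4 was the lowest mutant for *Dkk3* (115% of the control mean), *Sfrp1* (101%) and *Apcdd1* (97.6%). Without both libraries, the log2 fold changes were 0.37 for *Dkk3*, 0.36 for *Sfrp2*, 0.23 for *Apcdd1*, 0.20 for *Sfrp1* and 0.47 for *Dkk2*. At an unadjusted p under 0.05, *Dkk3*, *Sfrp2*, *Sfrp1* and *Apcdd1* were then higher and *Dkk2* was not (unadjusted p of 0.127 from edgeR), in a fit that called 14.9% of all tested genes higher.

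**Figure D4:**
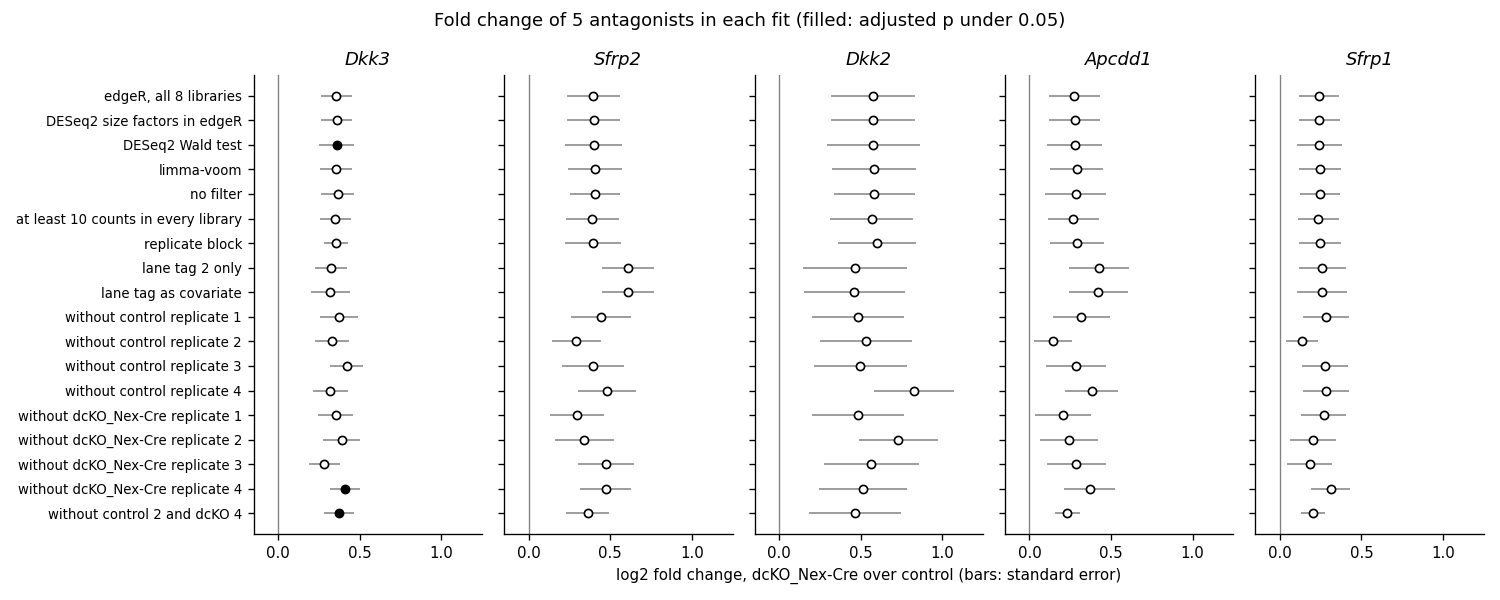
Log2 fold change of *Dkk3*, *Sfrp2*, *Dkk2*, *Apcdd1* and *Sfrp1*, dcKO_Nex-Cre over control, in the fit to all 8 libraries and in 17 alternative fits, with standard errors as bars and filled points for an adjusted p under 0.05. All values lie above 0, only *Dkk3* has filled points, and *Sfrp1* and *Apcdd1* come closest to 0, at 0.14, without control replicate 2.

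Markers of some other cell types moved with the same libraries, in either direction. The 5 markers of the oligodendrocyte lineage summed to 252, 173, 244 and 252 CPM in control replicates 1 to 4 and to 308, 295, 292 and 252 CPM in the mutants, with all 5 log2 fold changes above 0, 4 of them at an unadjusted p under 0.05 and *Cspg4*, a marker of oligodendrocyte precursors, at an adjusted p of 0.0355 (edgeR). Control replicate 2 also had the lowest sum of the 6 endothelial markers, 83.6 CPM against 118 to 124 CPM in the other controls and 111 to 142 CPM in the mutants. Cajal-Retzius markers went the other way, at 957 CPM in control replicate 2 against 456 to 723 CPM in the other controls. In dcKO_Nex-Cre replicate 4 they were at 761 CPM, against 547 to 637 CPM in the other mutants. Interneuron markers were at 818 CPM in control replicate 2, against 676 to 690 CPM. In dcKO_Nex-Cre replicate 4 they were at 740 CPM, against 582 to 706 CPM. The 6 microglia markers summed to 101 to 116 CPM in the control and 104 to 140 CPM in the mutant libraries, and the list split, with 3 genes higher and 1 lower at an unadjusted p under 0.05. *C1qb* was higher (log2 fold change 0.46, edgeR, adjusted p = 0.0422), whereas *P2ry12*, a marker of resident microglia, was at 12.1 CPM on average in the control and 8.12 CPM in the mutant without overlap (log2 fold change -0.57, edgeR, adjusted p = 0.0596). *Emx1*, a marker of the cortical excitatory lineage, was lower (edgeR, adjusted p = 0.0332), the only 1 of 8 projection neuron markers past the adjusted threshold. At an unadjusted p under 0.05, 3 of these 8 were lower and 0 higher, and the median log2 fold change of the list was -0.14. Over all tested genes, 6.59% were higher and 7.05% lower at that p. The part of these markers in the values of *Sfrp1*, *Sfrp2*, *Apcdd1* and *Dkk3* was not tested.

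Choroid plexus markers varied most, with summed levels of 23.6 to 1351 CPM in the control and 4.49 to 561 CPM in the mutant libraries (7 genes), and meningeal markers with 19.1 to 39.6 and 12.6 to 81.4 CPM (7 genes). Of the 5 tested choroid plexus genes, 0 had a log2 fold change above 0, and the median was -1.87. None of these 5 passed an adjusted p of 0.05 (edgeR, smallest adjusted p = 0.381). The highest meningeal sum, in dcKO_Nex-Cre replicate 2, came with the lowest *Dkk2* of the mutants. In the control, replicates 2 and 4 had the highest meningeal sums (39.6 and 36.4 CPM) and the highest *Dkk2* (1.53 and 2.56 CPM). Radial glia and astrocyte markers (8 genes) summed to 2327 to 2756 CPM in the control and 1904 to 2397 CPM in the mutant, and none of them passed an adjusted p of 0.05. *Fabp7*, the most abundant of them, went from 1584 to 1123 CPM on average without overlap (log2 fold change -0.50, edgeR, adjusted p = 0.113), while the median log2 fold change of the list was -0.02 and 3 of its 8 genes were above 0. Their part in the antagonists' values was not tested.

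Among the other genes of the pathway, *Rspo2*, which encodes a secreted agonist that raises the number of WNT receptors at the cell surface, was the only gene with an adjusted p under 0.05. It rose from 21.5 ± 2.23 to 54.9 ± 10.1 CPM (SD, n = 4 each), with a log2 fold change of 1.35 (edgeR, adjusted p = 0.00202), against at most 0.57 among the antagonists. The other 5 tested genes of WNT secretion and agonists had fold changes between that of *Wls*, at -0.32, and that of *Rspo3*, at 0.03. *Wls*, the carrier of WNT proteins to the cell surface, had an unadjusted p of 0.0249 (edgeR, adjusted p = 0.288). It was the only gene of this list lower at an unadjusted p under 0.05, as were 7.05% of all tested genes. *Porcn*, the acyltransferase of WNT ligands, was at -0.12.

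Of 16 other genes listed as antagonists, not all of which act outside the cell, 10 were tested and 0 passed the adjusted threshold. *Shisa2*, which keeps Frizzled receptors in the endoplasmic reticulum, came closest. It was at 12.9 ± 1.23 CPM in the control and 9.11 ± 1.05 CPM in the mutant (SD, n = 4 each), a log2 fold change of -0.50 (edgeR, adjusted p = 0.0936) and no overlap between the groups. *Dkkl1* was at a log2 fold change of 0.39 and *Draxin* at 0.27 (edgeR, adjusted p = 0.477 and 0.495). In CPM, *Draxin* was on average above every member, at 144 ± 15.6 in the control and 174 ± 44.8 in the mutant (SD, n = 4 each). The median over the 10 genes was 0.07.

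Of the 11 tested ligand genes, 1 was higher at an unadjusted p under 0.05, namely *Wnt7b*, a ligand made by cortical neurons, at 82.0 ± 8.74 and 107 ± 16.8 CPM (SD, n = 4 each), with a log2 fold change of 0.38 (edgeR, adjusted p = 0.176). *Wnt4* and *Wnt9a* had log2 fold changes of 0.24 and -0.33 (edgeR, adjusted p = 0.542 and 0.558). All 15 receptor genes were tested, with a median log2 fold change of 0.17. At an unadjusted p under 0.05, 5 were higher and 0 lower, against 6.59% and 7.05% of all tested genes. The smallest p-values among them were those of *Lrp5* (0.35, edgeR, adjusted p = 0.224), the receptor to which DKK1 binds, *Fzd1* (0.37, adjusted p = 0.256) and *Lrp6* (0.18, adjusted p = 0.329).

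The 10 feedback and target genes of the β-catenin branch, all tested, had a median log2 fold change of -0.03. *Lgr5*, an R-spondin receptor, was higher at an unadjusted p under 0.05 (log2 fold change 0.66, edgeR, adjusted p = 0.277), and *Nkd2* and *Lef1* were at -0.21 and 0.20 (edgeR, adjusted p = 0.420 and 0.726). Of these 10 genes, 4 had a log2 fold change above 0. *Apcdd1* and *Notum* are themselves known as targets of the pathway, and they were at 0.28 and -0.20.

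**Figure D5:**
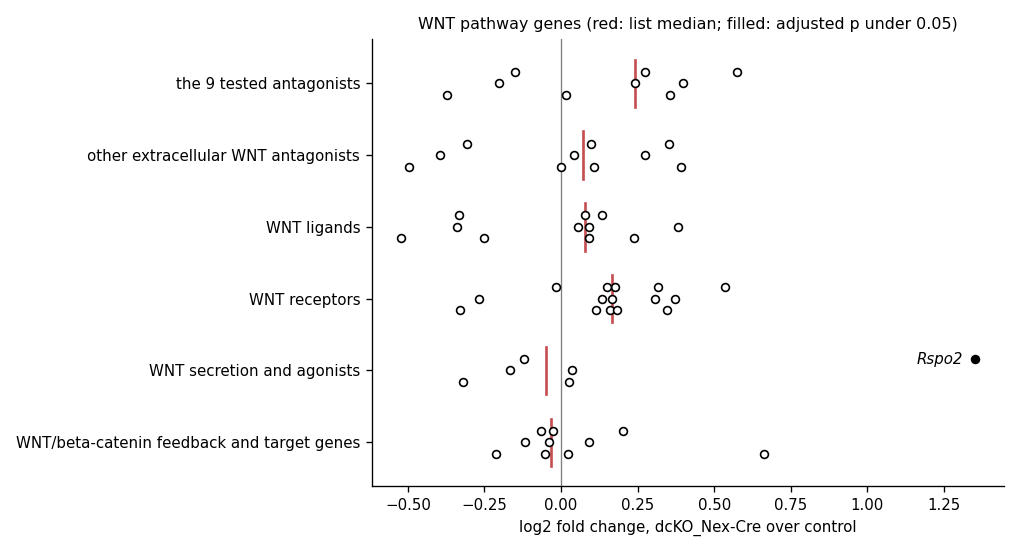
Log2 fold changes, dcKO_Nex-Cre over control, of the 9 tested antagonists and of 5 other lists of WNT pathway genes, with list medians as red bars and filled points for an adjusted p under 0.05 (edgeR). The median of the antagonists, 0.24, is the highest of the 6 and *Rspo2* is the only filled point, and the differences between lists were not tested.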

How the data were processed

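Total RNA of whole cortical tissue was isolated with TRIZOL, and libraries were prepared with the Illumina TruSeq RNA v2 kit. The deposited files give, per library, the authors' counts of reads for each Ensembl gene, with no scaling or filter. The build mm10 is named in the submitters' processing notes, and the aligner, the counting program and the annotation are not given in the sources used here. Symbols, positions and exon lengths were taken by Ensembl identifier from a GRCm38 annotation, which matched 48349 of 48709 genes.

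Groups were compared with edgeR 4.0.16 in R 4.3.3 (filterByExpr, TMM, robust quasi-likelihood F test, two-sided, no covariates), with Benjamini-Hochberg adjustment over the 16287 genes tested and a threshold of 0.05. Single genes were also compared by two-sided exact permutation tests of mean CPM. The common biological coefficient of variation was 0.143, and that of *Wif1*, a low member with a wide interval, was 0.314. Intervals cover the spread between libraries and floors cover counting error only. Alternatives were DESeq2 1.42.0 (Wald test and size factors), limma-voom (3.58.1), 2 other filters, a replicate block, the lane tags in the names of the deposited files, leaving out each library, and, chosen after seeing the data, leaving out the library of highest mitochondrial share in each group.

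The members and all gene lists were chosen with earlier results of these data known. Named were all members, their overlapping genes, the deleted genes, genes of each other WNT list with an adjusted p under 0.05 plus the 3 of smallest p, and marker genes with an adjusted p under 0.05. *Rspo3*, *P2ry12* and *Fabp7* were named after their values were seen. Methods were tested on simulated data with fold changes larger than those of the members, so that changes of the members' size were not covered. Figures were drawn with Python 3.11.15 and matplotlib 3.10.9.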

Additional observations from a re-analysis of the deposited data

Results flagged for a closer look

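A single library stood apart from the other 3 of its group in 3 of the 24 groups of member and deleted-gene values examined, by Dixon's criterion at the 95% level. Chance alone flags about 1 in 20 groups, or 1.2 here. *Dkk2* was at 2.56 CPM in control replicate 4, against 1.37 to 1.53 CPM in the other controls. *Sfrp1* was at 84.9 CPM in control replicate 2, against 119.7 to 122 CPM. *Sfrp4* was at 1.52 CPM in dcKO_Nex-Cre replicate 4, against 0.754 to 0.867 CPM in the other mutants. Without these libraries the log2 fold changes were 0.83 for *Dkk2*, 0.14 for *Sfrp1* and -0.61 for *Sfrp4*.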

How the results depend on the processing

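The count of antagonists with an adjusted p under 0.05 was 0, and it was 1 (*Dkk3*) with DESeq2's Wald test, without dcKO_Nex-Cre replicate 4, and without the library of highest mitochondrial share in each group, where *Dkk3* had log2 fold changes of 0.36, 0.41 and 0.37 (adjusted p = 0.0370, 0.0283 and 0.0275). Leaving out each library gave 0 to 1 such members, 1 to 4 members higher and 0 to 1 lower at an unadjusted p under 0.05, the low count of 1 higher coming without control replicate 2, control replicate 3 or dcKO_Nex-Cre replicate 1, and the 1 lower, *Sfrp4*, without dcKO_Nex-Cre replicate 4. At that p, these fits called 4.42% to 14.3% of all tested genes higher and 4.95% to 13.9% lower, the highest shares without dcKO_Nex-Cre replicate 4, and the fit within lane tag 2 called 11.7% higher and 11.8% lower. The fold change of *Dkk3* stayed between 0.28 and 0.42 over these 8 fits. *Sfrp5* turned to -0.12 within lane tag 2, -0.12 with the lane tag as a covariate and -0.019 without the libraries of highest mitochondrial share, and ranged from -0.16 to 0.18 when a library was left out, below 0 without control replicate 2 (-0.08), control replicate 3 (-0.01) or dcKO_Nex-Cre replicate 3 (-0.16). *Wif1* ranged from -0.34 to 0.093, above 0 without control replicate 4 (0.015) or dcKO_Nex-Cre replicate 4 (0.093). Of the members' values, 141 kept their direction and their side of the threshold, 8 changed sign and 3 passed the threshold. *Wif1* gave no value under the filter of at least 10 counts in every library.

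Over all genes, edgeR called 144, DESeq2's Wald test 494, no filter 259, the replicate block 54, lane tag 2 only 248, the lane tag as a covariate 52 and the fit without the libraries of highest mitochondrial share 1794, and 18 to 1278 were called when a library was left out, the highest without dcKO_Nex-Cre replicate 4. The cause was not tested. *Smarcc1* no longer passed with the replicate block (-0.54, adjusted p = 0.0578), within lane tag 2 (-0.46) or with the lane tag as a covariate (-0.46), and passed in 2 of the 8 fits without a library (-0.63 to -0.47), those without dcKO_Nex-Cre replicate 2 or 4. Replicates of the same number did not deviate together (correlations of -0.14 to 0.13, 0 of 8 libraries closest to their own number), so that the replicate block is an alternative only, and with it *Dkk3* was at 0.35 (edgeR, adjusted p = 0.0971). *Dkk1*, with 1 to 6 counts per library, is limited by depth.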
